A study of Mus musculus with 12 samples.

Results

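Hox genes encode homeodomain transcription factors, and their expression was followed here in normal colon of ApcMin mice. Members were taken as every array probe whose annotated symbol is Hoxa, Hoxb, Hoxc or Hoxd followed by a paralogue number. The rule found 38 genes among the 16593 named genes of the array, measured by 50 of its 25697 probes. The probes fell to 17 for 10 Hoxa genes, 13 for 10 Hoxb genes, 11 for 9 Hoxc genes and 9 for 9 Hoxd genes, and 9 genes had more than 1 probe. For description the genes were divided into an anterior class (paralogues 1 to 3, 12 probes), a central class (paralogues 4 to 8, 15 probes) and a posterior class (paralogues 9 to 13, 23 probes).

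The tissue came from mice kept for 11 weeks on a methyl deficient diet (labelled as 4 animals) or a methyl sufficient diet (labelled as 2 animals), with 2 samples of colon RNA from each animal, so that 8 deficient and 4 sufficient arrays were available. All of the mice, on either diet, carried the ApcMin allele, which truncates the tumour suppressor Apc and causes intestinal polyps. The labels do not say what the diets contained, where along the colon the samples were cut, or the age or sex of the mice. Labelled RNA was hybridised to Illumina bead arrays, on which each probe's mean bead signal is read as an intensity, and values below are log2 normalized signals unless stated otherwise. Signals of different probes are not compared with each other.

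The 2 arrays of some labelled animals did not match in sex. The Y-linked genes Eif2s3y and Kdm5d and the X-inactivation RNA Xist put 1 male and 1 female array in each of deficient animals 3 and 4 and sufficient animals 1 and 3. Deviations from the diet mean correlated at -0.26 and -0.28 within those deficient animals and at 0.02 and 0.05 within the sufficient ones, against 0.53 and 0.40 in deficient animals 1 and 2. When the arrays of the 4 animals were paired within diet by sex instead, the correlations were 0.66 (deficient male pair), 0.39 (deficient female pair), 0.40 (sufficient male pair) and 0.74 (sufficient female pair). Tests were therefore run both for the labelled animals and for these sex-matched pairs, 4 deficient and 2 sufficient units in either case. A labelled mean of those 4 animals joins a male and a female array, so the SD and SE of labelled animals may understate the spread between mice. In the SDs below an animal is a labelled animal. The difference is the same in both, and the SE and adjusted p are those of labelled animals unless sex-matched pairs are named. In sex-matched terms 6 deficient arrays were male and 2 female, and the sufficient arrays were 2 male and 2 female. Per array the median raw signal was 59.4 to 71.5, and 12609 to 13241 probes were detected. The epithelial marker list had all 8 of its genes on the array detected on at least 4 arrays, and the colon transcription factors Cdx1 and Cdx2 were detected on all 12.

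Hox genes lie in 4 clusters, and within a cluster the gene order follows the order of expression along the embryonic body axis, a property called collinearity: low-numbered paralogues are switched on first and further forward, high-numbered ones later and towards the tail. The gut keeps part of this address in the adult, in the muscle and connective tissue as well as in the epithelium, and the last paralogues are needed for the hindgut, the anal sphincter and the urogenital tract. Hox proteins bind DNA with TALE homeodomain partners of the Pbx and Meis families. Their genes are held in check by Polycomb proteins, opened by trithorax proteins, and set in the embryo by retinoic acid and by Cdx factors.

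Promoter sequences are shown for 5 genes, 3 that passed the test with labelled animals and had a sequence (Hoxa5, Hoxb4 and Hoxd9), and the neighbours Hoxd10 and Hoxd12, chosen after their values were seen because their signal set 2 arrays apart. Each is the RefSeq window of 300 bases on GRCm38.p6, 250 before the gene's start and 50 after it, read 5′ to 3′ on the gene's strand, with every CG dinucleotide, the letters at which mammalian DNA can be methylated, in capitals. The windows lie at chr6:52204538-52204837 (minus strand, Hoxa5), chr11:96318017-96318316 (plus strand, Hoxb4), chr2:74697513-74697812 (plus strand, Hoxd9), chr2:74691641-74691940 (plus strand, Hoxd10) and chr2:74674763-74675062 (plus strand, Hoxd12).
Hoxa5: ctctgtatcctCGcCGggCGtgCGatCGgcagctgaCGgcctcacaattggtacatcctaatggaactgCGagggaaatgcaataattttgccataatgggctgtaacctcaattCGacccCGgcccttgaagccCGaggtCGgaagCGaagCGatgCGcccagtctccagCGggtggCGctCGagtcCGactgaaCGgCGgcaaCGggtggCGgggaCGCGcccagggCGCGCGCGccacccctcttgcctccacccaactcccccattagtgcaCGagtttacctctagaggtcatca
Hoxb4: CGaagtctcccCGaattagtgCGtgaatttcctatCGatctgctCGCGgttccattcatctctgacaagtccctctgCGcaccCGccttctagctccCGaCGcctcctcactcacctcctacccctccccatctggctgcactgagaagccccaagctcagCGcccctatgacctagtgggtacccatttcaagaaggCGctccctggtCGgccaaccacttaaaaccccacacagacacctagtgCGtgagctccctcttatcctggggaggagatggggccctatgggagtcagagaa
Hoxd9: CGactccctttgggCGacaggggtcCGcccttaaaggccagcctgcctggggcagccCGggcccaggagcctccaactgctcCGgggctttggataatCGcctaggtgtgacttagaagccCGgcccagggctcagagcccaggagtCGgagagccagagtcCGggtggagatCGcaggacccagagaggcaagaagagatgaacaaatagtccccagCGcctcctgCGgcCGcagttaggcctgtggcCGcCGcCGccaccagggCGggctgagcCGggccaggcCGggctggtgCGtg
Hoxd10: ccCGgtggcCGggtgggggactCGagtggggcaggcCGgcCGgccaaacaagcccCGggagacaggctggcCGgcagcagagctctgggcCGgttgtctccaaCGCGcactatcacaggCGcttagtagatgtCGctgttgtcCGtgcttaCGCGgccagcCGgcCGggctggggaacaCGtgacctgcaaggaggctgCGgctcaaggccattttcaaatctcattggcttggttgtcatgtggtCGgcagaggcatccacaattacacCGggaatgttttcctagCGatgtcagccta
Hoxd12: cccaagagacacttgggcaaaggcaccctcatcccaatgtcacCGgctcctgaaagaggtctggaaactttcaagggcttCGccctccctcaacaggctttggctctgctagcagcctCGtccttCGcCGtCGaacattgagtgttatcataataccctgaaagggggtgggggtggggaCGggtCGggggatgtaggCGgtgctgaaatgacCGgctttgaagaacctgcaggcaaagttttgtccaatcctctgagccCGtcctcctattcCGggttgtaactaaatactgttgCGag
Hoxa5 held 29 CG dinucleotides in its window, Hoxb4 14, Hoxd9 20, Hoxd10 22 and Hoxd12 13. The 22 Hox genes of 38 that had a window held 4 to 45, with a median of 13.5, while the median over the windows of 27025 genes was 7. The hexamer TTTATG, searched on both strands because Cdx factors bind sites of this kind, occurred in 5 of the 22 (22.7%; Hoxa7, Hoxb8, Hoxd3, Hoxd4 and Hoxd11) and in 12.1% of all windows, and in none of the 5 printed. DNA methylation and Cdx binding were not measured.

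Detection showed which Hox genes the colon samples carried. A probe was called detected on an array where its detection p-value, which ranks the signal against negative control beads, was under 0.05. Of the 50 Hox probes, 15 (for 12 genes) were detected on all 12 arrays, 26 on none and 9 on some. Over the whole array 43.4% of probes were detected on all 12 arrays and 42.6% on none. Counted by gene, 20 Hox genes had a probe detected on at least 1 array and 18 had none.

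The Hoxa genes detected on all 12 arrays were Hoxa2, Hoxa5, Hoxa7, Hoxa9 and Hoxa13, and no array detected Hoxa3, Hoxa4, Hoxa6, Hoxa10 or Hoxa11. In the Hoxb cluster Hoxb2, Hoxb4, Hoxb5 and Hoxb7 were detected on all 12 arrays, Hoxb9 and Hoxb13 on 11, and Hoxb1, Hoxb6 and Hoxb8 on none. Hoxb3 was detected by 1 of its 3 probes on 2 deficient arrays and on no sufficient array. Of the 9 Hoxc genes, Hoxc4 was detected on 2 of 8 deficient and 3 of 4 sufficient arrays and Hoxc10 on 5 of 8 deficient and 4 of 4 sufficient arrays, while the other 7 were detected on none. In the Hoxd cluster Hoxd8, Hoxd10 and Hoxd13 were detected on all 12 arrays, Hoxd9 on 11, Hoxd12 on 10 and Hoxd4 on 7, and Hoxd1, Hoxd3 and Hoxd11 on none. A probe that stays undetected can also be a probe that works poorly: the third Hoxa9 probe and the second Hoxc10 probe were undetected on every array although another probe of the same gene was detected.

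**Figure D1:**
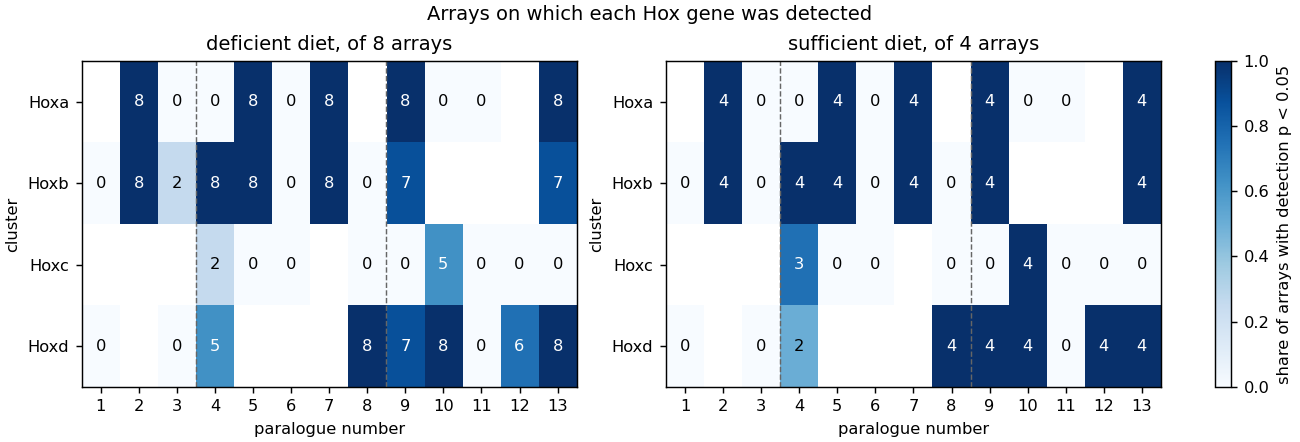
Number of arrays with detection p under 0.05 for each Hox gene, by cluster (rows) and paralogue number (columns), in 8 deficient arrays (left) and 4 sufficient arrays (right); colour gives the share of arrays, the probe detected most often stands for its gene, and a white cell has no value. Detected genes lie between paralogues 2 and 13, and 7 of the 9 Hoxc genes are at 0 in both panels.

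Of the 50 probes, 23 (for 19 genes) were detected on at least 4 of the 12 arrays and were tested with limma across all 13497 probes that met this filter, 52.5% of the array. They comprised 3 anterior, 8 central and 12 posterior probes. A probe may pass such a filter through the diet in which it is higher, so the count of 23 is not a count of all Hox genes.

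With labelled animals, 6 of the 23 tested Hox probes passed an adjusted p of 0.05 (26.1%), while 10.8% of all tested probes did. The genes higher on the deficient diet were 5, namely Hoxb2, Hoxb4, Hoxa5, Hoxb5 and Hoxb7, in a table where 5.3% of probes passed in that direction. Hoxd9 was the single member that was lower, against 5.51% of all probes. With sex-matched pairs none of the 23 passed, and 0.282% of all tested probes did. With sex added as a covariate to the pairs, again none of the 23 passed, and 0.0519% of all probes did. At an unadjusted p under 0.05 the pairs called 15% of all tested probes. An exact permutation test has 15 ways to divide 6 units into 2 and 4 and cannot fall below p = 0.0667, so none is given for single genes.

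The differences are given by paralogue class, in which the 3 anterior probes stand for 2 genes. All 3 anterior probes lay above 0 (deficient minus sufficient) with a median of 0.32, 6 of 8 central probes lay above 0 with a median of 0.46, and the 12 posterior probes were divided 6 and 6 with a median of 0.00082. Over all tested probes the median was 0.0060 and 51.2% lay above 0. Passing members with labelled animals numbered 1 of 3 anterior (higher), 4 of 8 central (all 4 higher) and 1 of 12 posterior (lower). By cluster, 4 of 6 Hoxb probes passed and the median difference was 0.62, 1 of 9 Hoxa probes passed with a median of 0.12, neither of 2 Hoxc probes passed, and 1 of 6 Hoxd probes passed with a median of -0.22. These medians cover the probes that passed the detection filter. Over all 50 probes the anterior median was 0.021 and the central median 0.15. Class and cluster overlap, as all 4 passing Hoxb probes were anterior or central, so their parts cannot be told apart. Central probes outside Hoxb ran from -0.11 (Hoxc4) to 0.65 (Hoxa5). The medians carry no test, because class and cluster were chosen with earlier results known.

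**Figure D2:**
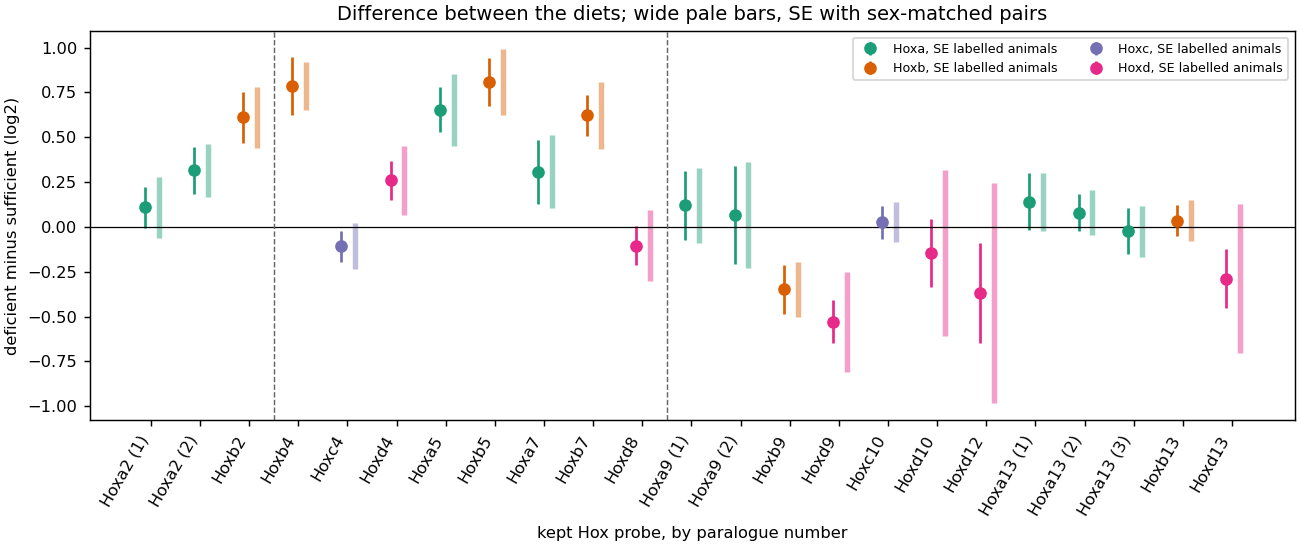
Log2 difference, deficient minus sufficient, of the 23 tested Hox probes in order of paralogue number (dashed lines separate anterior, central and posterior), coloured by cluster; points with thin bars give the difference ± SE with labelled animals and the wide pale bars beside them ± SE with sex-matched pairs. Central Hoxb genes and Hoxa5 reach 0.62 to 0.81, posterior probes scatter about 0, and the pale bars of Hoxd10, Hoxd12 and Hoxd13 are the widest.

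Among the anterior genes Hoxb2, which patterns the hindbrain in the embryo, passed with labelled animals. Its signal was 6.39 and 6.01 in deficient 1, 6.20 and 6.24 in deficient 2, 5.78 and 5.70 in the deficient male pair and 6.17 and 6.21 in the deficient female pair. In sufficient tissue it was 5.97 and 5.24 in the male pair and 5.41 and 5.27 in the female pair. Thus 1 of 4 sufficient arrays lay above both arrays of the deficient male pair and below the other 6 deficient arrays, and the other 3 lay below all 8. The labelled animals averaged 6.09 ± 0.14 (deficient, SD, n = 4) and 5.47 ± 0.31 (sufficient, SD, n = 2). The difference was 0.61 ± 0.14 (SE), a 1.53-fold higher signal with an adjusted p of 0.0334, and with sex-matched pairs the SE was 0.17 and the adjusted p 0.185. The 2 Hoxa2 probes, chosen for mention after their values were seen, differed by 0.11 and 0.32 with adjusted p of 0.575 and 0.159 (0.789 and 0.360 with sex-matched pairs).

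Hoxb4 and Hoxb5, both central, gave the largest differences of the 23 probes. Hoxb4, known from blood stem cell self-renewal, had deficient signals of 6.38 and 6.76 (deficient 1), 6.15 and 7.20 (deficient 2), 6.23 and 6.56 (male pair) and 6.90 and 6.63 (female pair). Its sufficient signals were 5.35 and 6.41 (male pair) and 5.65 and 5.86 (female pair). One sufficient array, at 6.41, lay above 3 of the 8 deficient arrays. Hoxb4 averaged 6.60 ± 0.05 in 4 deficient animals and 5.82 ± 0.45 in 2 sufficient animals (SD), a difference of 0.78 ± 0.16 (SE, 1.72-fold, adjusted p = 0.0213). Its SE was 0.13 and its adjusted p 0.0800 with sex-matched pairs, the lowest of any member in that fit.

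Hoxb5, which acts in the neural crest cells that form the enteric nervous system, had deficient signals of 8.92 and 8.82 (deficient 1), 8.62 and 8.98 (deficient 2), 8.23 and 8.26 (male pair) and 8.71 and 8.85 (female pair). The sufficient signals were 7.85 and 7.91 (male pair) and 8.05 and 7.65 (female pair). All 8 deficient arrays lay above all 4 sufficient arrays, with the deficient male pair nearest to them. Hoxb5 averaged 8.67 ± 0.19 in 4 deficient animals and 7.87 ± 0.12 in 2 sufficient animals (SD). The difference was 0.81 ± 0.13 (SE, 1.75-fold, adjusted p = 0.010), and with sex-matched pairs the SE was 0.18 and the adjusted p 0.128.

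Hoxb7, a marker of the ureteric bud in the embryo, had deficient signals of 6.46 and 6.49 (deficient 1), 6.17 and 6.30 (deficient 2), 5.87 and 5.80 (male pair) and 6.38 and 6.50 (female pair). The sufficient signals were 5.46 and 5.80 (male pair) and 5.70 and 5.55 (female pair). The diets did not overlap, but the lowest deficient array and the highest sufficient array agreed to 2 decimals. Hoxb7 averaged 6.25 ± 0.16 in 4 deficient animals and 5.62 ± 0.07 in 2 sufficient animals (SD), a difference of 0.62 ± 0.11 (SE, 1.54-fold, adjusted p = 0.0149), and with sex-matched pairs the SE was 0.19 and the adjusted p 0.211.

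Hoxa5, needed in the mouse for development of the lung and for maturation of the gut, was the called member outside the Hoxb cluster among the central genes. Its deficient signals were 10.06 and 10.10 (deficient 1), 9.66 and 9.73 (deficient 2), 9.82 and 9.89 (male pair) and 10.35 and 10.23 (female pair). Its sufficient signals were 9.50 and 9.61 (male pair) and 9.17 and 9.02 (female pair). The arrays of the diets did not overlap, and the female pair lay above the male pair on the deficient diet and below it on the sufficient diet. Hoxa5 averaged 9.98 ± 0.19 in 4 deficient animals and 9.33 ± 0.01 in 2 sufficient animals (SD), a difference of 0.65 ± 0.13 (SE, 1.57-fold, adjusted p = 0.0175), and with sex-matched pairs the SE was 0.20 and the adjusted p 0.220. Each sufficient labelled mean joined a male and a female array, and by sex-matched pair the sufficient means were 9.56 (male) and 9.09 (female).

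The sole passing posterior gene was Hoxd9. Its deficient signals were 6.17 and 5.99 (deficient 1), 6.12 and 6.19 (deficient 2), 5.22 and 5.56 (male pair) and 6.29 and 6.54 (female pair), against sufficient signals of 6.86 and 6.68 (male pair) and 6.29 and 6.33 (female pair). The deficient female pair overlapped the sufficient female pair, and the deficient male pair was lowest. Hoxd9 averaged 6.01 ± 0.18 in 4 deficient animals and 6.54 ± 0.05 in 2 sufficient animals (SD), a difference of -0.53 ± 0.12 (SE, ratio 0.693, adjusted p = 0.0313), with an SE of 0.28 and an adjusted p of 0.412 for sex-matched pairs.

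**Figure D3:**
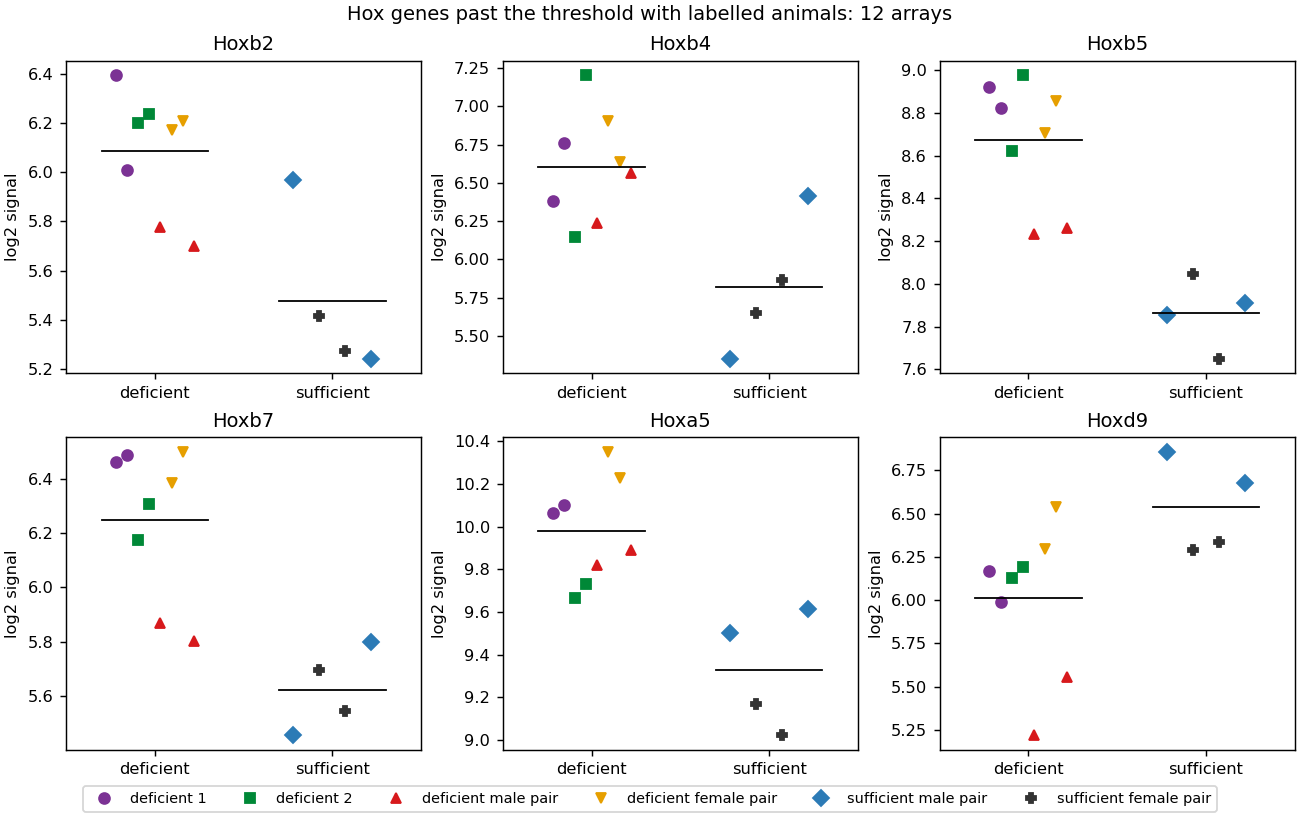
Log2 signal on the 8 deficient (left) and 4 sufficient (right) arrays of each of the 6 Hox genes that passed the threshold with labelled animals; colours and shapes mark the units of the sex-matched pairing, horizontal lines the mean of each diet. Hoxb5, Hoxb7 and Hoxa5 do not overlap between the diets, and the red deficient male pair is the lowest deficient pair for Hoxb2, Hoxb5, Hoxb7 and Hoxd9.

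Arrays of the 2 diets did not overlap for 3 of the 23 members, all 3 higher, against 3.27% of all tested probes in that direction, and no member was lower without overlap, against 3.06%. For sex-matched pair means there was no overlap in 7 of the 23, against 25% of all probes, and for labelled animal means in 9 of the 23, against 42.6%. Differences were also taken within sex, with 6 deficient and 2 sufficient male arrays and 2 of each diet among females. In males and females they were 0.45 and 0.84 for Hoxb2, 0.67 and 1.01 for Hoxb4, 0.76 and 0.93 for Hoxb5, 0.55 and 0.82 for Hoxb7 and 0.32 and 1.19 for Hoxa5. For Hoxd9 they were -0.89 in males and 0.10 in females, so its lower signal was seen in male arrays. The interaction of diet and sex was also fitted on sex-matched pairs. There the sufficient males, the sufficient females and the deficient females each held a single pair, so its calls are not read here. Fits with the sufficient diet reduced to 1 labelled animal assumed that the lone animal varied like the others, and their calls are not read here.

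Markers of other cell types were counted beside the Hox genes, against 5.3% of all tested probes that passed as higher and 5.51% as lower. Of 14 fibroblast and matrix genes tested, 9 passed as higher on the deficient diet with labelled animals and none as lower, with a median difference of 0.54. Of 7 enteric neuron and glia genes 5 passed as higher (median 0.66), and of 11 smooth muscle genes 1 did (Synm, an intermediate filament protein, at 0.85 ± 0.20 SE, adjusted p = 0.0335; list median 0.41). Of 8 epithelial genes 1 passed as lower (Cdh17, an intestinal cadherin, at -0.66 ± 0.11 SE, adjusted p = 0.0122; list median -0.19). The matrix protein gene Mfap4 was higher by 2.11 ± 0.15 (SE, adjusted p = 0.000594), and it alone of these lists passed with sex-matched pairs (SE 0.21, adjusted p = 0.0226). The neuronal gene Stmn2 was higher by 1.07 ± 0.14 (SE) with an adjusted p of 0.0050, and 0.109 with sex-matched pairs.

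Expressed per array as the mean deviation of a list from its 12-array mean, the fibroblast list ran from -0.23 to 0.56 on deficient arrays and from -0.89 to -0.28 on sufficient arrays, and the neuron and glia list from -0.18 to 0.45 and from -0.48 to -0.32. The smooth muscle list ran from -0.50 to 0.54 on deficient arrays and from -0.35 to -0.12 on sufficient arrays, and the epithelial list from -0.29 to 0.14 and from 0.12 to 0.21. The 6 Hoxb probes ran from -0.17 to 0.43 on deficient arrays and from -0.43 to -0.15 on sufficient arrays. Of the listed genes on the array, all fibroblast and epithelial genes were detected on at least 1 array, while Synpo2 of the smooth muscle list and Gfap, Nos1 and S100b of the neuron and glia list were detected on none. The share of Hox signal that comes from each of these cell types was not tested. In bulk tissue more cells of a type and more RNA per cell cannot be told apart.

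Posterior Hoxd genes set 2 arrays apart from the other 10, namely the deficient male pair. These genes and arrays were picked out after the values were seen, so they are described without a test. Hoxd12 gave 5.27 and 5.22 in that pair, 7.66 and 7.33 in deficient 1, 6.83 and 6.79 in deficient 2 and 7.46 and 7.73 in the deficient female pair. Its sufficient signals were 7.42 and 7.28 (male pair) and 6.90 and 7.02 (female pair). The 2 arrays of the deficient male pair were the ones on which Hoxd12 was not detected, with detection p of 0.0526 and 0.0514.

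Hoxd10 gave 8.93 and 8.96 in the deficient male pair, between 10.31 and 10.77 on the other 6 deficient arrays and between 10.02 and 10.56 on the sufficient arrays. Hoxd13 gave 6.56 and 6.33 in the deficient male pair, 7.72 and 7.69 in deficient 1, 7.69 and 6.43 in deficient 2 and 7.98 and 8.25 in the deficient female pair, against 7.82 and 7.37 (male pair) and 7.46 and 7.83 (female pair) on the sufficient diet. For Hoxd13 sample 2 of deficient animal 2 lay as low as the male pair. Hoxd8 gave 5.40 and 5.67 in that pair, 5.93 to 6.31 on the other 6 deficient arrays and 5.81 to 6.23 on the sufficient arrays.

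Measured as the mean of the pair minus the mean of the other 10 arrays, the gaps were -1.47 for Hoxd10, -1.18 for Hoxd13, -0.96 for Hoxd9 and -0.55 for Hoxd8. Hoxd9 was not detected on 1 array of the pair, so that its gap is measured in part against background. No gap is given for Hoxd12, which was not detected on either array and has only an upper bound there. Both arrays of the pair lay below the other 10 for 4 Hox probes (Hoxd8, Hoxd9, Hoxd10 and Hoxd12), as they did for 3.43% of all tested probes. They lay above the other 10 for 3 Hox probes (Hoxa7, Hoxc4 and 1 of the Hoxa2 probes), as for 4.7% of all. Hoxa7 gave 9.77 and 9.86 in the pair, 9.02 to 9.77 on the other 6 deficient arrays and 8.97 to 9.40 on the sufficient arrays. The mean deviation of the 6 Hoxd probes was -0.94 and -0.84 in the pair, -0.10 to 0.43 on the other 6 deficient arrays and -0.02 to 0.28 on the sufficient arrays.

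**Figure D4:**
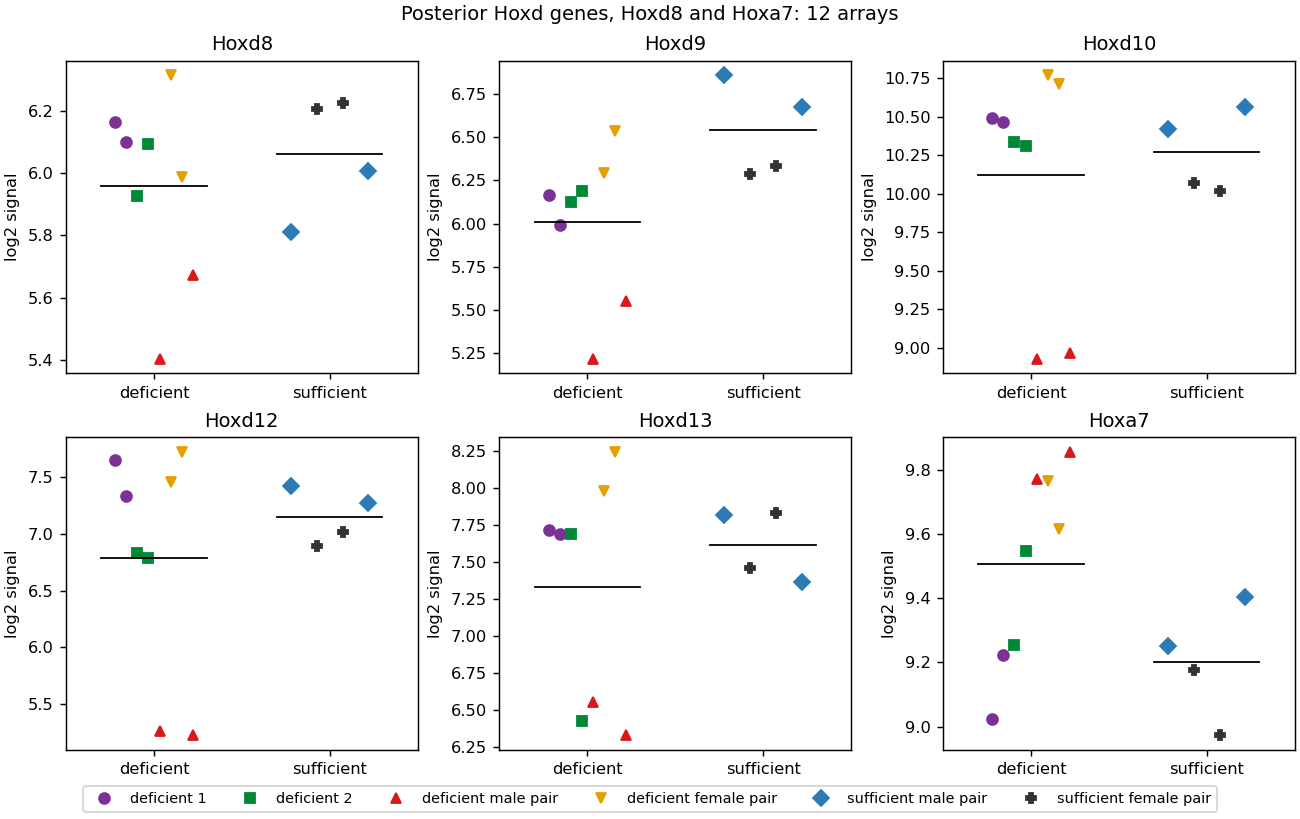
Log2 signal of Hoxd8, Hoxd9, Hoxd10, Hoxd12, Hoxd13 and Hoxa7 on the 8 deficient (left) and 4 sufficient (right) arrays, with the units of the sex-matched pairing marked and the mean of each diet as a line. The deficient male pair lies lowest for Hoxd8, Hoxd9, Hoxd10 and Hoxd12, shares the low range of Hoxd13 with 1 array of deficient 2, and lies high for Hoxa7.

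Some other genes with regional expression in the gut also set these 2 arrays apart, and they are given because they did. Over all tested probes the pair lay above the other 10 arrays for 4.7% and below them for 3.43%. Of 10 tested ParaHox and regional factors it lay above for 1 (Cdx2) and below for 1 (Isl1). Of 9 small intestine and proximal gut genes it lay above for 2 (Slc51a and Fabp6) and below for 0. As a list the 9 genes did not set the pair apart, with a mean deviation of 0.27 and 0.34 in the pair, -0.34 to 0.64 on the other 6 deficient arrays and -0.92 to 0.25 on the sufficient arrays. Cdx2, a homeobox gene that sets intestinal identity, gave 10.67 and 10.88 in the deficient male pair and 7.55 to 9.02 on the other 10 arrays. Slc51a, a bile acid transporter most active in the ileum, gave 9.13 to 9.26 in the pair and 5.35 to 8.29 elsewhere, and Fabp6, the ileal bile acid binding protein, 8.59 to 8.69 and 6.84 to 8.57. Isl1 gave 7.70 to 7.88 in the pair and 8.22 to 8.76 elsewhere. Tissue lists set the pair apart as well. Of 11 smooth muscle genes it lay below the other 10 arrays for 5, and of 14 fibroblast genes for 1. It lay above them for 0 in both lists. The smooth muscle list lay at -0.50 and -0.44 in the pair, 0.12 to 0.54 on the other 6 deficient arrays and -0.35 to -0.12 on sufficient arrays. The fibroblast list lay at -0.23 to -0.19, 0.38 to 0.56 and -0.89 to -0.28. The neuron and glia list lay at -0.18 to -0.16, 0.20 to 0.45 and -0.48 to -0.32. For these last 2 lists the pair lay above the sufficient arrays. The part of sampling position or tissue make-up in the Hoxd values was not tested.

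Without the 2 arrays of the deficient male pair, the labelled-animal fit called 5 Hox probes, all 5 higher, and the sex-matched fit called 4, namely Hoxb2 (0.73, adjusted p = 0.0406), Hoxb4 (0.85, adjusted p = 0.0297), Hoxb5 (0.95, adjusted p = 0.0193) and Hoxb7 (0.76, adjusted p = 0.0385). In the labelled-animal fit deficient animals 3 and 4 were then a single female array each, and the sex-matched pairing joins those arrays in 1 unit. The share of all probes passing in that labelled-animal fit is not given, so its count is not read as a result about Hox genes. In that sex-matched fit 351 of all 13497 probes passed (2.6%), and Hoxa5 had an adjusted p of 0.145. Leaving out these arrays was decided after the data were seen. The pair had the lowest deficient mean for Hoxb2, Hoxb4, Hoxb5 and Hoxb7, so its removal had to raise their differences. The 4 calls are therefore not taken as support. The difference of Hoxd9 was -0.32 without the pair, that of Hoxd10 0.25 and that of Hoxd12 0.15, over the 6 remaining deficient and 4 sufficient arrays.

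**Figure D5:**
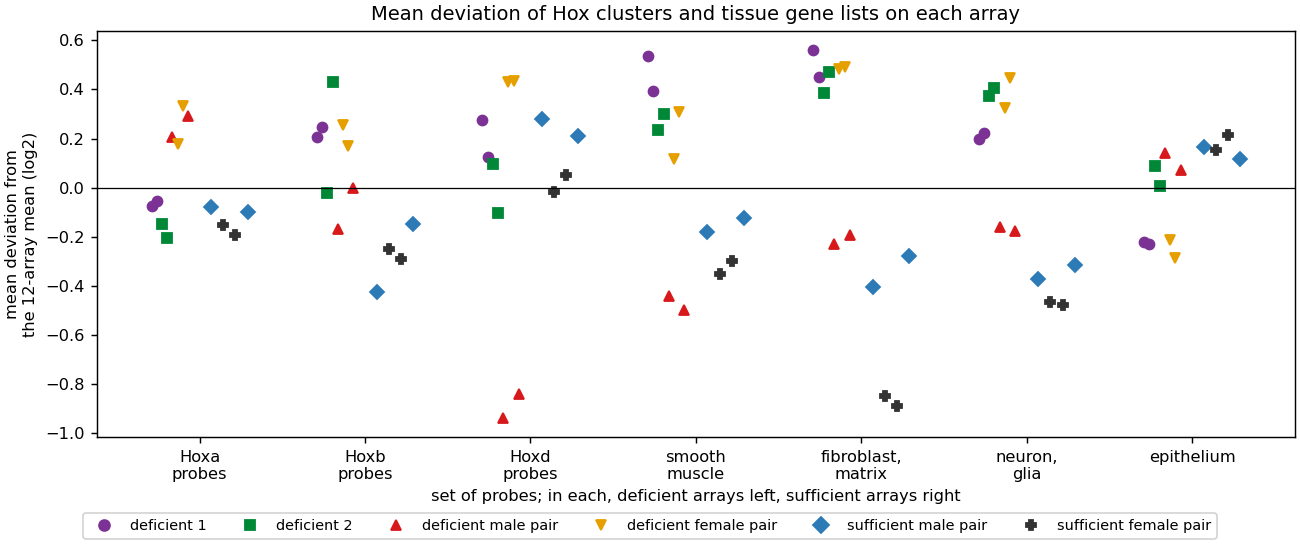
Mean log2 deviation of the tested Hoxa (9), Hoxb (6) and Hoxd (6) probes and of 4 tissue marker lists from their 12-array means; each point is 1 array, deficient arrays to the left and sufficient arrays to the right within each set, with the units of the sex-matched pairing marked. The deficient male pair lies at -0.94 and -0.84 for Hoxd and below the sufficient arrays for smooth muscle, and the sufficient female pair lies lowest for the fibroblast list.

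The paralogue 13 genes mark the end of the gut and the urogenital tract. For Hoxd13 the labelled-animal difference was -0.29 ± 0.16 (SE, adjusted p = 0.284), with an SE of 0.42 and an adjusted p of 0.769 for sex-matched pairs. The 3 Hoxa13 probes disagreed in detection. The brightest gave 6.58 and 6.60 (deficient 1), 6.40 and 6.40 (deficient 2), 6.72 and 6.79 (male pair) and 6.79 and 6.88 (female pair) on the deficient diet, against 6.75 and 6.53 (male pair) and 6.68 and 6.71 (female pair) on the sufficient diet. The diets overlapped throughout, and its difference was -0.02 ± 0.13 (SE, adjusted p = 0.926, and 0.953 with sex-matched pairs). A second probe, detected on all 12 arrays, ran from 5.35 to 5.87 (median 5.63) on deficient arrays, against 5.40, 5.48, 5.38 and 5.86 on sufficient arrays, and differed by 0.08 ± 0.10 (SE, adjusted p = 0.647, and 0.792 with sex-matched pairs). The remaining probe ran from 4.86 to 5.53 (median 5.25) on deficient arrays, of which 4 detected it, and was not well above background on any sufficient array (5.11, 5.06, 5.01 and 5.07). It passed the detection filter through deficient arrays alone. Its deficient mean of 5.20, which includes arrays without detection, lay at the sufficient arrays' detection floor of 5.19, so no fold is read from it. Its adjusted p was 0.598 (0.708 with sex-matched pairs).

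Hoxb13, known for its role in the prostate and the distal colon, ran from 5.24 to 5.55 (median 5.40) on deficient arrays, against 5.31, 5.29, 5.58 and 5.23 on sufficient arrays. Its difference of 0.04 ± 0.09 (SE, adjusted p = 0.821) did not pass, and with sex-matched pairs the adjusted p was 0.902. A prostate transcript was present on some arrays: Tgm4, a transglutaminase made in the prostate, gave 12.83 and 12.73 in deficient 2 and 12.51 and 12.57 in the sufficient male pair, and 4.57 to 4.73 on the other 8 arrays. On those 4 arrays Hoxb13 was 5.24 and 5.38 (deficient 2) and 5.31 and 5.23 (sufficient male pair), within or below its range of 5.25 to 5.58 on the other 8. Of 4 tested genes of the accessory sex gland list none passed in either fit.

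Hoxc4, the Hoxc probe with the smallest p, gave 5.14 and 5.10 (deficient 1), 4.91 and 5.09 (deficient 2), 5.33 and 5.32 (male pair) and 5.06 and 4.91 (female pair) on the deficient diet, against 5.18 and 5.18 (male pair) and 5.27 and 5.23 (female pair) on the sufficient diet. The deficient male pair lay above and the other 6 deficient arrays below all sufficient arrays. The difference was -0.11 ± 0.09 (SE, adjusted p = 0.456), with an adjusted p of 0.722 for sex-matched pairs. Of the other tested members without a call, Hoxd12 and Hoxb9 differed most, by -0.37 ± 0.28 (SE, adjusted p = 0.426) and -0.35 ± 0.14 (SE, adjusted p = 0.142). With sex-matched pairs their adjusted p was 0.803 and 0.341. Hoxd4 differed by 0.26, Hoxa7 by 0.31 and Hoxd8 by -0.10, with adjusted p of 0.159, 0.300 and 0.569 (0.55, 0.50 and 0.83 with sex-matched pairs), and Hoxa9, Hoxc10 and Hoxd10 by -0.15 to 0.12.

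Among the genes that work with Hox proteins, 2 of 8 tested TALE cofactors passed with labelled animals, both higher. Meis2 gave 9.11 to 10.05 on deficient and 8.80 to 9.05 on sufficient arrays and differed by 0.80 ± 0.15 (SE, adjusted p = 0.0167). Meis1 gave 8.77 to 9.97 on deficient and 8.68 to 8.91 on sufficient arrays and differed by 0.74 ± 0.18 (SE, adjusted p = 0.0403). For both the lowest deficient arrays were the deficient male pair, and with sex-matched pairs the adjusted p was 0.211 and 0.308. The list median was 0.27, and neither direction had a call with sex-matched pairs.

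Of 10 tested ParaHox and regional transcription factors 2 passed, both higher, namely the visceral mesoderm factor Nkx2-3 (0.45 ± 0.08 SE, adjusted p = 0.0122) and Osr2 (0.54 ± 0.12 SE, adjusted p = 0.0294). With sex-matched pairs their adjusted p was 0.162 and 0.347, and no gene of the list passed. Cdx1 differed by 0.0016 (adjusted p = 0.993), Pdx1, the ParaHox gene of the pancreas and duodenum, by -0.0059 (adjusted p = 0.980) and Cdx2 by 0.99 ± 0.50 (SE, adjusted p = 0.235). With sex-matched pairs the adjusted p was 0.996 for Cdx1, 0.989 for Pdx1 and 0.536 for Cdx2. Of 19 Polycomb and trithorax genes none passed in either fit, and the smallest p was that of the Polycomb gene Cbx7 (0.33 ± 0.13 SE, adjusted p = 0.135, and 0.516 with sex-matched pairs). None of 9 tested cluster neighbours passed either, with Evx1, the homeobox gene next to Hoxa13, at -0.92 ± 0.28 (SE, adjusted p = 0.0725, and 0.371 with sex-matched pairs). Of 7 retinoic acid pathway genes the retinaldehyde dehydrogenase Aldh1a1 alone passed (0.63 ± 0.17 SE, adjusted p = 0.0486), and with sex-matched pairs it did not (adjusted p = 0.182).

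Of 4 tested distal hindgut genes 2 passed as higher and 1 as lower with labelled animals: Wnt5a, a Wnt ligand of the gut mesenchyme, at 0.85 ± 0.13 (SE, adjusted p = 0.0082), Nkx2-3 again, and Insl5, a hormone of colonic endocrine cells, at -0.73 ± 0.09 (SE, adjusted p = 0.0044). Of 9 small intestine and proximal gut genes 2 passed as higher (Osr2 and Slc51a) and 1 as lower (Slc51b, at -0.97 ± 0.18 SE, adjusted p = 0.0156). Slc51a and Slc51b, the 2 subunits of one bile acid transporter, differed in opposite directions, with Slc51a at 1.42 ± 0.35 (SE, adjusted p = 0.0426). With sex-matched pairs no gene of these lists passed. The female reproductive tract and urothelium lists had 2 tested genes each and the sex-linked list 4, and none passed in either fit. The urothelium list deviated by 0.36 and 0.65 in the sufficient male pair and 0.74 and 1.14 in deficient 2, the arrays with Tgm4. On the other arrays it deviated by -0.68 to -0.16. Both diets hold arrays with Tgm4, so a test of diet cannot show this pattern, and the tissue behind it was not tested.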

How the data were processed

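The authors deposited a table with a linear mean bead intensity for each probe and array, with no sign of normalization, and, per the file headers, each array's detection p-value. The deposited series matrix holds the authors' processed log2 values, centred per probe by steps not given in the sources used here, and served as an alternative. Every per-sample column was used.

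The neqc function of limma 3.58.1, run in R 4.3.3, corrected background and equalized quantiles (offset 16, negative controls inferred from detection p), and log2 was taken. Probes with detection p under 0.05 on at least 4 of 12 arrays were tested. The 2 arrays of each labelled animal, or of each sex-matched pair, were averaged, and the 6 means were fitted with lmFit and eBayes (residual degrees of freedom 4, prior 4.00; two-sided; Benjamini-Hochberg over all 13497 tested probes). The number of arrays limits the precision. The fit was tested on simulated data.

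Symbols came from the platform annotation and were checked by Entrez ID in RefSeq (GRCm38.p6): all 50 probes matched and 0 changed. Other genes are represented by the probe with the highest mean signal. Members and gene lists were chosen with earlier results of these data known. Per-array values are given for members past the threshold, the smallest p per cluster and class, and paralogue 13. Of each other list, at most the 3 genes with the smallest p are named, plus Tgm4, Cdx1, Cdx2 and Pdx1. Fabp6, Isl1, Hoxa2, Hoxa7, Hoxa9, Hoxb9, Hoxc10, Hoxd4, Hoxd8, Hoxd10 and Hoxd12 were named after their values were seen. Alternatives are given in the closing section.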

Additional observations from a re-analysis of the deposited data

Results flagged for a closer look

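In 69 sets of 4 to 8 values, made up of the sufficient arrays, the deficient arrays and the deficient labelled animals for each tested Hox probe, 2 had a value far from the rest by Dixon's 95% criterion, or 2.9%, where chance gives about 1 in 20. For Hoxa5, deficient animal 2 averaged 9.70 and lay below the other deficient labelled animals, with a gap that took up 0.933 of the group's range and passed the critical value. The labelled means of deficient animals 3 and 4 each joined a male and a female array. By sex-matched pairing the means were 10.08 (deficient 1), 9.70 (deficient 2), 9.86 (male pair) and 10.29 (female pair), so deficient 2 lay near the male pair. The criterion was not applied to that pairing. For Hoxb9, sample 1 of sufficient animal 1 gave 5.28 and lay below the other 3 sufficient arrays, with a gap of 0.833 of the range that just passed the same critical value.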

How the results depend on the processing

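The number of animals, 2 and 4, and signals near background for probes such as Hoxb13 and Hoxc4 limit these results, and 8 Hox probes rather than 15 were detected on all 12 arrays at detection p under 0.01. The number of Hox probes past the threshold was 6 (5 higher, 1 lower) and stayed so with 75th percentile scaling, without background correction and with an offset of 50. It was 0 with sex-matched pairs and 0 with sex as a covariate, and the cause was not tested. It was 5, 5 higher and 0 lower, with labelled animal as a random block, and 4, with 0 lower, from the series matrix. It was 3, with 3 higher and 0 lower, with the sex-matched pair as a random block and without a filter on detection, and 2, with 2 higher and 0 lower, for probes at detection p under 0.01 on all 12 arrays. Leaving out 1 unit at a time included fits with the sufficient diet reduced to 1 unit, so no count is given for it. Added after seeing the data, leaving out the deficient male pair's arrays gave 5 (0 lower) and leaving out the 4 arrays with Tgm4 gave 7 (6 higher, 1 lower). In the first of these fits deficient animals 3 and 4 were single female arrays, and in the second sufficient animals 1 and 3 were. Of all tested probes 10.8% passed with labelled animals, 0.282% with sex-matched pairs and 0.0519% with sex as a covariate. The share is not given here for the other settings, so their counts are not read as results about Hox genes.

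Animal number as a replicate block gave 3 Hox probes, with 3 higher and 0 lower, and an anterior median of 0.22. The arrays of animals 1 and 3 did not deviate together across diets (correlations -0.06 and -0.05), so the number does not pair them. The central median, 0.46, was 0.49 with sex as a covariate, 0.65 from the series matrix and at detection p under 0.01, 0.36 without background correction, 0.35 with an offset of 50, 0.15 without a filter, 0.57 without the deficient male pair, 0.55 without the arrays with Tgm4, and 0.32 for paralogues 1 to 8. The anterior median, 0.32, was 0.021 without a filter, which adds undetected probes, and the posterior median 0.10 without the deficient male pair. Leaving out 1 unit gave 0.22 to 0.38 (anterior), 0.30 to 0.56 (central) and -0.11 to 0.036 (posterior).

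The 6 passing genes kept their sign in each of 24 alternatives (25 for Hoxa5 and Hoxb5). Fits with sex-matched pairs or a random block share the estimate of the main fit, so their sign was fixed in advance. Other alternatives leave out units, and some of these reduce the sufficient diet to 1. Removing the deficient male pair had to raise the differences of the passing Hoxb genes. The kept signs are therefore not taken as support, and passes are not counted over the alternatives. Reversals were met for values near 0: the brightest Hoxa13 probe (0.020, 0.0022 and 0.031 with sex as a covariate, with the replicate block and without the arrays with Tgm4, and -0.087 to 0.058 leaving out 1 unit), the second Hoxa13 probe (-0.019 to 0.18 leaving out 1 unit) and Hoxb13 (-0.023 without the arrays with Tgm4, and -0.049 to 0.12 leaving out 1 unit). Hoxd13 also reversed, though its main difference was -0.29. It was 0.13 without the arrays of the deficient male pair, and -0.55 to 0.0076 leaving out 1 unit. Within sex it was -0.52 in males and 0.47 in females.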

Other observations

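Hoxb9, which passed no test of diet, was higher in sample 2 than in sample 1 in each of the 6 labelled animals, by 0.61 on average, as were 5.98% of all tested probes. It was the sole Hox probe of the 23 tested with such a pattern in that direction, and 0 had it in the opposite one, against 5.01% of all. Its signals in samples 1 and 2 were 5.32 and 5.80, 5.25 and 6.26, 5.40 and 5.65, and 5.19 and 6.05 in deficient animals 1 to 4, and 5.28 and 6.18, and 6.11 and 6.28 in sufficient animals 1 and 3. Hoxb4 was higher in sample 2 in 5 of 6 animals, by 0.48 on average. Sample number is balanced over the diets in both pairings, and taken within sample 1 and within sample 2 the diet difference was 0.74 and 0.83 for Hoxb4, 0.90 and 0.71 for Hoxb5, 0.75 and 0.50 for Hoxb7, 0.52 and 0.70 for Hoxb2, 0.68 and 0.63 for Hoxa5 and -0.58 and -0.47 for Hoxd9. The labels do not say what the sample number marks. These values were looked at after the data were seen and carry no test.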
